A study of Mus musculus with 32 samples.

Results

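The response of lung epithelial cells to osteoglycin (OGN) was read from 8 RNA-sequencing libraries of re-sorted Epcam+ cells, 4 from vehicle-treated and 4 from OGN-treated organoid cultures, out of 32 libraries in the series. They were chosen by their labels, as the OGN and control libraries of the Epcam+ population, and every gene of the deposited count table was considered, so no measured value took part in the choice. CD31-/CD45-/Epcam+ cells of 4 naive C57BL/6 J mice (8 to 14 weeks old) were grown in Matrigel beside CCL206, a line of mouse lung fibroblasts that mitomycin C had kept from dividing. Each culture was started from 300000 Epcam+ cells and the same number of fibroblasts, received vehicle or recombinant human OGN at 10 µg/mL for 72 h, and was then split again with Epcam (CD326) microbeads. The cells of each mouse were used in every treatment, so an OGN library and a vehicle library with the same mouse number form a pair. All cultures shared the mouse strain, the fibroblast line and its mitomycin C treatment. The 8 other Epcam+ libraries came from the same mice after treatment with extracellular vesicles (EVs) or soluble factors (SFs) of MRC5 human lung fibroblasts, and 16 libraries came from the fibroblast fractions. OGN was added to both cell populations of a culture together, so an effect on Epcam+ cells can be direct or can pass through the fibroblasts, and the design cannot tell these apart.

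OGN, also called mimecan, is a small leucine-rich proteoglycan of the extracellular matrix that fibroblasts secrete. The lung epithelium meets such matrix at its base. Its alveolar type 2 (AT2) cells make surfactant and can give rise to the flat alveolar type 1 (AT1) cells of gas exchange, whereas the airway holds secretory, ciliated and basal cells. Epithelial cells that sense microbial products or cytokines turn on genes for antimicrobial proteins, acute-phase proteins and chemokines, many of them through the transcription factor NF-kB. Cells that make more lactate from glucose, for instance through the hypoxia-inducible factor HIF-1, raise glucose transporters and glycolytic enzymes. Both kinds of genes recur in the results.

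Vehicle libraries held 3067660 to 16662822 counts and OGN libraries 3792377 to 13705527. Levels are given in CPM, a gene's count per 1000000 counts of the library after TMM scaling. The table lists genes with at least 1 count in each of the 32 libraries, and levels are relative to that total. Of 11818 genes, 11716 had enough counts for a test. Epcam itself was at 278, 316, 315 and 261 CPM in vehicle and at 283, 334, 261 and 370.1 CPM in OGN cells (mice 1 to 4), from 11.6 to 37.8 times the level in the fibroblasts of the same culture. Genes of the fibroblast signature were present too: the median of its 9 genes was at 19.0 to 28.1% of the fibroblast level in vehicle cultures and at 16.8 to 21.4% in OGN cultures. In bulk RNA, fewer cells of a type and less RNA per cell cannot be told apart. The library of vehicle-treated mouse 1 stood apart for 1 main AT2 gene, surfactant protein C, described with the AT2 genes.

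The quasi-likelihood test of edgeR, fitted with a term for each mouse, called 316 genes at an adjusted p under 0.05, which is 2.7% of those tested. OGN raised 173 genes (1.48%) and lowered 143 (1.22%). Antimicrobial and acute-phase proteins and CXC chemokines led the genes that rose, glycolytic and HIF-1 target genes rose by smaller factors, and the genes that fell included markers of airway secretory and basal cells and enzymes of foreign compound metabolism beside many outside these groups. Most changes were small: 43 of the raised and 22 of the lowered genes passed a 2-fold change, and the median log2 fold change was 0.57 among raised and -0.61 among lowered genes. Over all genes tested it was -0.0031, with 49.4% of genes above 0. For 240 of the 316 genes, the 4 OGN libraries lay entirely above or entirely below the 4 vehicle libraries, which was so for 6.19% of all genes tested.

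**Figure D1:**
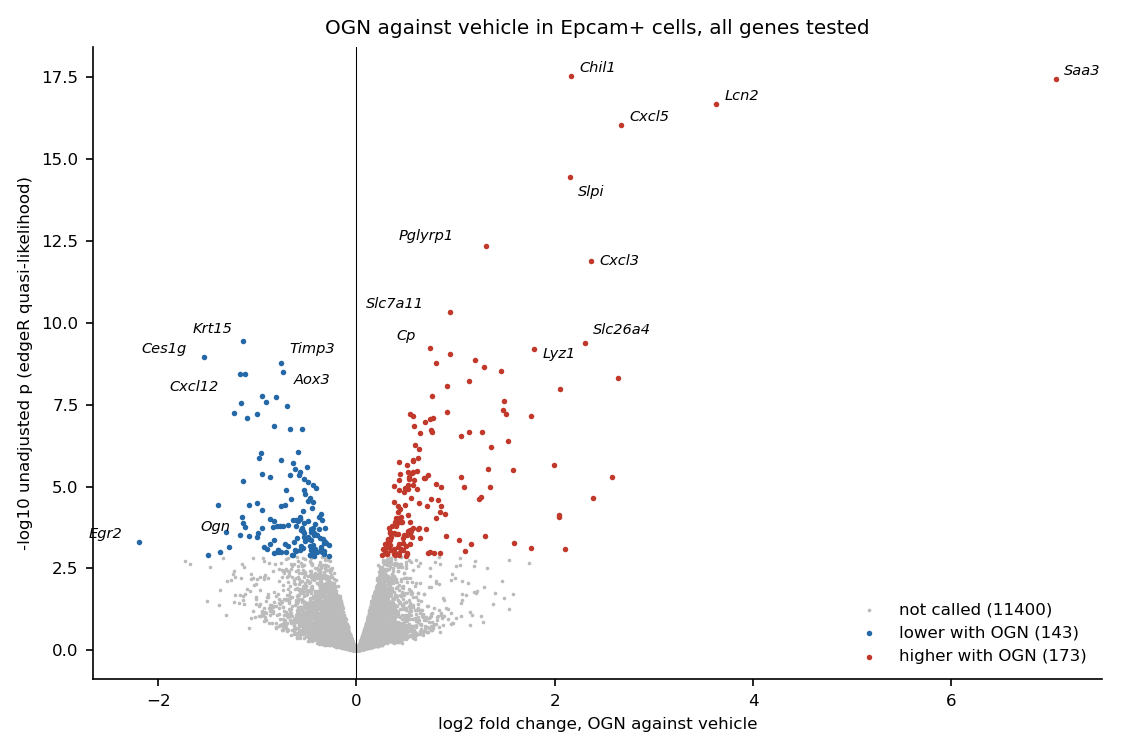
Log2 fold change by OGN (x axis) against the -log10 unadjusted p of edgeR's quasi-likelihood test (y axis) for the 11716 genes tested in Epcam+ cells. The 173 genes called higher are red, the 143 called lower are blue and all others are grey, and Saa3, at 7.06, lies far to the right of every other gene.

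Promoters of some leading genes are shown first, because several of the genes that rose most are known NF-kB targets and the letters show where such a motif lies. Windows of 300 bases, 250 before and 50 after a start site, were read from RefSeq (GRCm38.p6), which gave 1 or more for 9119 of the 11716 genes by symbol, 11696 windows in all. They were searched on both strands for the NF-kB motif (named here by its name alone), for the core of the hypoxia response element, ACGTG, and for an amino acid response element, TGATGNAA. Of the 15 genes that rose with the smallest p, 12 had a window, and 4 of these held an NF-kB match: Chil1 (chr1:134181906-134182205, plus strand), Pglyrp1 (chr7:18884440-18884739, plus strand), Cxcl3 (chr5:90785851-90786150, plus strand) and Tnip3 (chr6:65590148-65590447, plus strand). Capitals mark the match, read 5′ to 3′ on the strand of the gene. In Cxcl3 and Tnip3 the match is near-palindromic and was found on both strands at overlapping letters.
Chil1: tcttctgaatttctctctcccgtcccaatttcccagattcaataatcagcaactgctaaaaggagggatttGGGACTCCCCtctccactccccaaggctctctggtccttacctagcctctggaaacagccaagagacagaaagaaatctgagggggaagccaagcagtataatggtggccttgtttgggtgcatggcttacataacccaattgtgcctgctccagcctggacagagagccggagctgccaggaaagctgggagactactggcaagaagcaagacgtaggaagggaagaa
Pglyrp1: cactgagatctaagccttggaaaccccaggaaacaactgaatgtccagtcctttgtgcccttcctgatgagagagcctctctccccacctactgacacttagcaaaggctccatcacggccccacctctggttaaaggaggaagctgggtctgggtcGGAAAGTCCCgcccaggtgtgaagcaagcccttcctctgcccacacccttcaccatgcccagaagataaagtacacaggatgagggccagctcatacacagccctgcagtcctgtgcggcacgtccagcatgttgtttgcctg
Cxcl3: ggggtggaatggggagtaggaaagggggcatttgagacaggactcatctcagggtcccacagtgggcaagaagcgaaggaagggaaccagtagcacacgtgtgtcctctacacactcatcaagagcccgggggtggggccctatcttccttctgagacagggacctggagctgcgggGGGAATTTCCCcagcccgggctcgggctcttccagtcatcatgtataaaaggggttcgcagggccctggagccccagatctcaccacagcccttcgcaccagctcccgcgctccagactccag
Tnip3: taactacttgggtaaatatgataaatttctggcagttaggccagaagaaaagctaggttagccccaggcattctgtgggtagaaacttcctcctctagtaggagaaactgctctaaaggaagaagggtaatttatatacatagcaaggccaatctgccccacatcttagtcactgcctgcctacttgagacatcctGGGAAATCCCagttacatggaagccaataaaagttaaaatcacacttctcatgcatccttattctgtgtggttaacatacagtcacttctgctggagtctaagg
The matches began 179, 93, 73 and 54 bases before the start site in Chil1, Pglyrp1, Cxcl3 and Tnip3. The windows of Saa3, Lcn2, Slpi, Slc7a11, Slc26a4, Cp, Lyz1 and Cd177 held no NF-kB match. The same motif was in 5.16% of the 11696 windows of genes tested, in 10.3% of the 165 windows of raised genes, in 1.36% of the 147 windows of lowered genes and in 4.51% of all 32851 windows of the table. Counted by gene, 17 of 131 raised genes with a window and 2 of 102 lowered ones held it in at least 1 window. Among all 9119 genes tested with a window, 566 (6.21%) did. Of the 15 genes that fell with the smallest p, 12 had a window that was read and 0 of these held it. The counts among the 15 genes of each direction left out any windows on 1 chromosome, which the shares of windows did not. Windows differ in base composition, and these shares are descriptions without a test.

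The window of Slc7a11 (chr3:50443564-50443863, minus strand), a cystine transporter, held the amino acid response element on each strand, at 66 and 47 bases before the start site. That element was in 2.16% of windows of genes tested and in 3.97% of all windows. The windows of Slc2a1 (chr4:119108495-119108794, plus strand), the glucose transporter GLUT1, and of Ldha (chr7:46845554-46845853, plus strand), lactate dehydrogenase A, held ACGTG. Ldha had 5 matches, some of them the same letters read on both strands. Capitals mark these elements.
Slc7a11: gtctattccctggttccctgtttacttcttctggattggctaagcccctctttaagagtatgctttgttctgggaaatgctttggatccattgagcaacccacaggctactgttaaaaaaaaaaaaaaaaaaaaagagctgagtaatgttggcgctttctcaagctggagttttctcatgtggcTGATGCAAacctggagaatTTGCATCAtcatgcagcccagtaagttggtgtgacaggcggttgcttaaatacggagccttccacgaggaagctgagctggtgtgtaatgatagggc
Slc2a1: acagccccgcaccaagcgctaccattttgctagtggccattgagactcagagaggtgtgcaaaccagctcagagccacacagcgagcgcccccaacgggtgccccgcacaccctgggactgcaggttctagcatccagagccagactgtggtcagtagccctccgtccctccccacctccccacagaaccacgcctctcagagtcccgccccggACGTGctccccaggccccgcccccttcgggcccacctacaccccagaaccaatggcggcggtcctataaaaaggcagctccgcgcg
Ldha: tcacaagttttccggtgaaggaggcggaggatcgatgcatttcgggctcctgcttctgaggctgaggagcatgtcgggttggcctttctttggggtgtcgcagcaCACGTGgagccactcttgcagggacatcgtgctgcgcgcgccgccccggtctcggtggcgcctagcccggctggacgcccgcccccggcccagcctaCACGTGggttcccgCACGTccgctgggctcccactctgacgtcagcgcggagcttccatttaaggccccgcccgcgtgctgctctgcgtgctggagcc
Of the 15 raised genes of the glycolysis and HIF-1 lists with a window, 10 held ACGTG in at least 1, beside 29.9% of the 9119 genes tested that had a window. By window, it was in 11 of their 21 windows (52.4%), in 25.7% of windows of genes tested and in 19.62% of all windows. HIF-1 targets are in part known by such elements. A match is a run of letters, not a binding site.

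The antimicrobial and acute-phase genes gave the steepest changes. Of 13 genes tested in a list of them, 12 rose and 0 fell, beside 2.7% called among all genes tested. The median log2 fold change of the list was 1.31. Not every gene described below beside these was in that list. Saa3, serum amyloid A3, an acute-phase protein that mouse epithelium makes itself, was at 1.07, 0.655, 0.822 and 0.284 CPM in the vehicle cells of mice 1 to 4 and at 124, 121, 104 and 99.8 CPM in their OGN cells (log2 fold change 7.06, SE 0.26, adjusted p = 2.14e-14). The vehicle values stood on 18, 2, 4 and 1 counts, so the size of the change, 133-fold in the fit, rests on very few vehicle counts, whereas the OGN libraries had 358 to 1421 counts. No vehicle library came near any OGN library. With OGN the Saa3 level stayed below that of the fibroblasts of the same cultures, and the part of fibroblast transcripts in it was not tested.

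Lcn2, lipocalin 2, which withholds iron from bacteria by binding their siderophores, rose from 37.9, 44.9, 26.3 and 42.5 CPM to 503, 480.0, 463 and 366 CPM (log2 fold change 3.63, SE 0.14, adjusted p = 8.17e-14). Chil1, a chitinase-like protein abundant in AT2 cells, rose from 238, 171, 191 and 210.2 CPM to 1022, 928, 815 and 860.1 CPM (log2 fold change 2.17, SE 0.078, adjusted p = 2.14e-14), with the smallest p of all genes. The groups were wide apart for both genes, and among vehicle cells mouse 3 was lowest for Lcn2 and mouse 2 for Chil1. Slpi, an inhibitor of neutrophil elastase, rose from 32.4, 26.9, 28.1 and 43.7 CPM to 145, 132, 126 and 180.1 CPM (log2 fold change 2.15, SE 0.11, adjusted p = 8.29e-12). Mouse 4 had the highest Slpi level both without and with OGN. Pglyrp1, which binds bacterial peptidoglycan, rose from 60.3, 72.4, 84.4 and 68.6 CPM to 149, 195, 183 and 184 CPM (log2 fold change 1.31, SE 0.085, adjusted p = 9e-10), and mouse 1 was lowest in both groups. Lyz1, 1 of the pair of mouse lysozymes, rose from 14.8, 11.5, 8.83 and 11.9 CPM to 37.1, 47.5, 43.6 and 43.8 CPM (log2 fold change 1.79, SE 0.17, adjusted p = 6.29e-07), and its near-identical copy Lyz2 rose from a mean of 220.3 ± 30.4 to 355 ± 47.4 CPM (SD, n = 4; log2 fold change 0.69, SE 0.089, adjusted p = 2.72e-05). Reads of such copies can be split wrongly by the counting program. Cp, ceruloplasmin, a ferroxidase of plasma, was already abundant and rose from 764, 826, 965 and 834 CPM to 1344, 1504, 1448 and 1338 CPM (log2 fold change 0.74, SE 0.07, adjusted p = 6.29e-07). The change of Cp was 1.67-fold, and its groups did not overlap. Also raised were Lrg1 (log2 fold change 1.76), Steap4 (1.53), Ltf (0.68), Hp (0.57) and Lbp (0.47). Ltf encodes the iron-binding lactoferrin and Hp the haemoglobin-binding haptoglobin. The call of Lbp, the lipopolysaccharide-binding protein, was lost without mouse 1, 2 or 3, and that of Ltf without the replicate block (adjusted p = 0.0771). Serpina3n, at 0.25, did not pass the test. Ltf, Hp and Serpina3n were named after their values were seen, to complete the list.

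**Figure D2:**
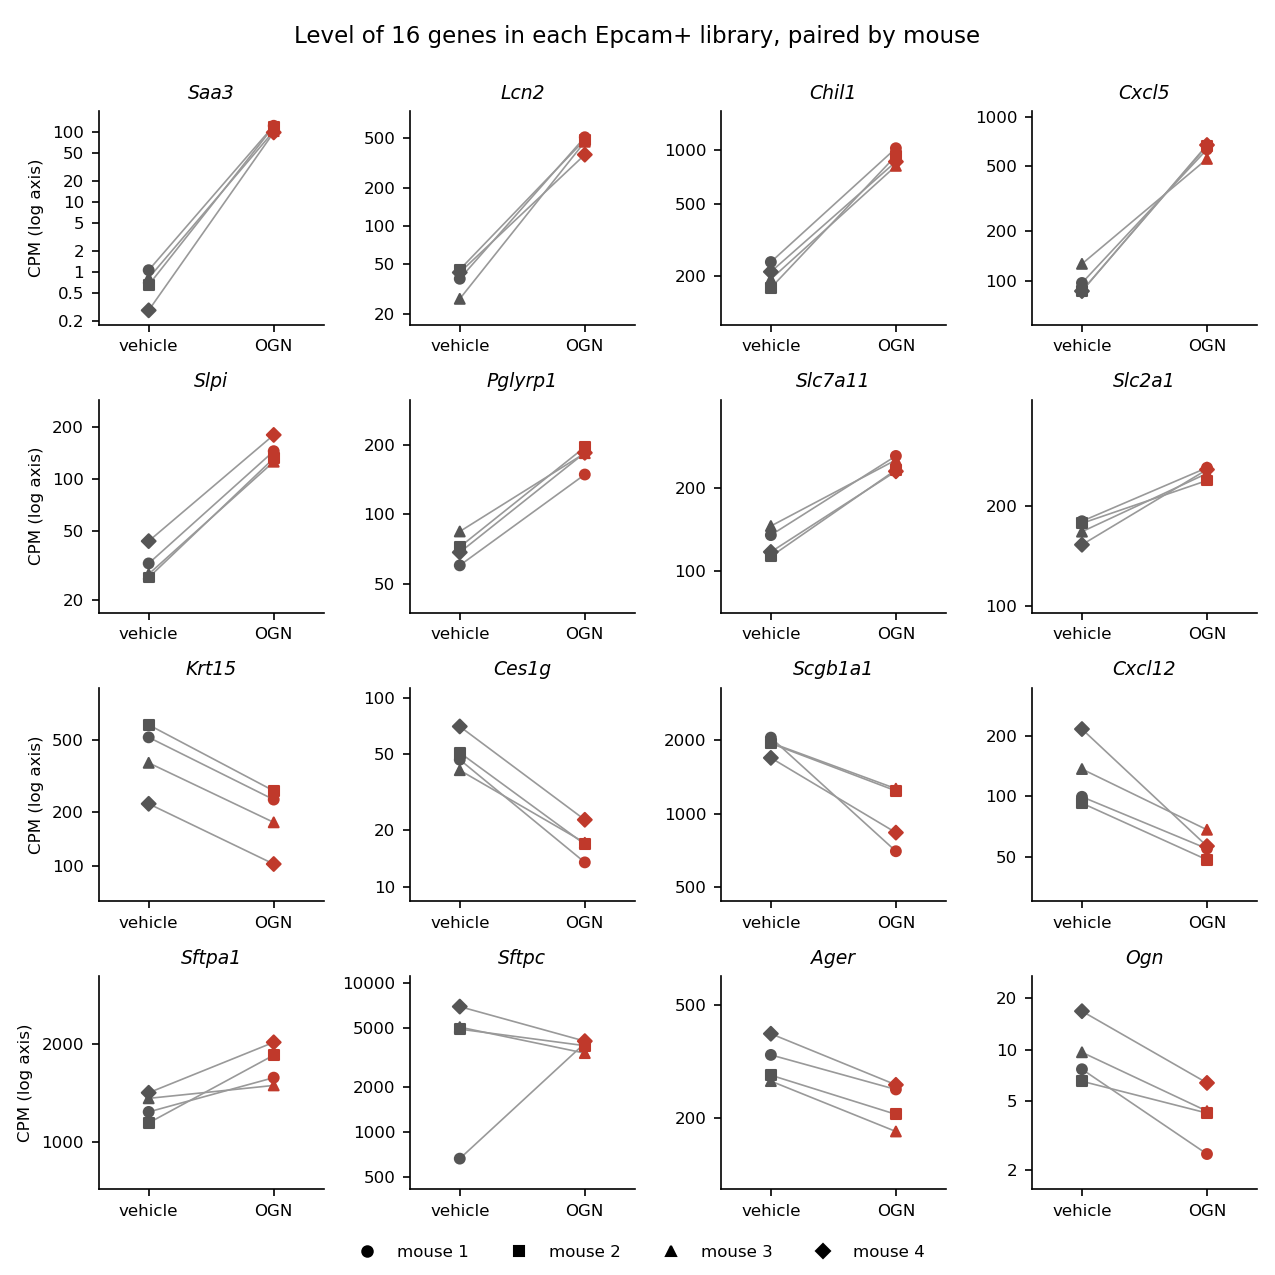
CPM (log axes that differ between panels) of 16 genes in the 8 Epcam+ libraries, vehicle in grey and OGN in red, with a line joining the libraries of 1 mouse and a marker shape for each mouse. The upper 8 genes rise in all 4 mice, the genes of the third row fall in all 4, and Sftpc shows the low vehicle library of mouse 1 at 665 CPM.

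Chemokine ligands moved in both directions. Of 13 tested, 5 rose and 2 fell, beside 1.48% raised and 1.22% lowered among all genes tested. Cxcl5, Cxcl3 and Cxcl1 recruit neutrophils through the receptor CXCR2. Cxcl5 rose from 97, 86.8, 127 and 86.5 CPM to 632, 664, 553 and 672 CPM (log2 fold change 2.67, SE 0.11, adjusted p = 2.71e-13), which is 6.34-fold. Cxcl3 rose from 26.2, 13.8, 22.8 and 17.3 CPM to 119, 122, 78.3 and 117 CPM (log2 fold change 2.37, SE 0.16, adjusted p = 2.11e-09). OGN libraries of both genes lay far above all vehicle libraries, with mouse 3 lowest among them. Cxcl1 rose by 1.27 on the log2 scale (adjusted p = 4.79e-05). Ccl20, which attracts cells that carry CCR6, rose from a mean of 23.2 ± 8.36 to 65.9 ± 13.8 CPM (SD, n = 4; log2 fold change 1.48, SE 0.18, adjusted p = 1.58e-05). Cxcl16 rose by only 0.33, a call lost without mouse 1, 2 or 3. In contrast, Cxcl12, the CXCR4 ligand of stromal cells, fell from 99.3, 92.4, 136 and 215 CPM to 55, 48.4, 68.2 and 56.6 CPM (log2 fold change -1.17, SE 0.12, adjusted p = 2.01e-06), with no overlap of the groups. Cx3cl1, fractalkine, had a log2 fold change of -0.47 (adjusted p = 0.0213, not called without mouse 1, 3 or 4). Cxcl12 in Epcam+ libraries was at 0.133 to 0.246 of the fibroblast level of the same vehicle culture, which was not above the median of the fibroblast signature in any of the 4 cultures. The part of fibroblasts in its level was not tested. Cxcl15, the most abundant chemokine here, was at a mean of 1953 CPM in vehicle and 2226 CPM in OGN cells and did not pass the test (adjusted p = 0.268). Cxcl16, Cx3cl1 and Cxcl15 were named after their values were seen.

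Of 20 subunits and feedback inhibitors of NF-kB itself, 2 rose (10%, beside 1.48% of all genes tested), Tnfaip3 (A20, log2 fold change 0.55) and Ikbke (0.51), and both calls were lost without mouse 1 and without the replicate block, the first with adjusted p of up to 0.315 and the second of up to 0.407. Ikbke also lost its call without mouse 3 or 4. Tnip3, an A20-binding inhibitor of NF-kB that stood outside that list, rose from 85.4, 74.4, 99.4 and 80.5 CPM to 147, 157, 163 and 191 CPM (log2 fold change 0.94, SE 0.091, adjusted p = 8.32e-07), with all OGN libraries above all vehicle libraries. Of 17 genes of Toll-like and IL-1 receptor signaling, 2 rose. One was Lbp, and the other was Cd14, a co-receptor for lipopolysaccharide, which went from a mean of 263 ± 16.9 to 451 ± 72.4 CPM (SD, n = 4; log2 fold change 0.76, SE 0.087, adjusted p = 7.36e-06). Among 5 cytokines, Il33, an alarmin of the IL-1 family, rose (log2 fold change 0.58, adjusted p = 3.63e-05). Complement gave 1 gene in each direction: C3 rose from a mean of 731 ± 78.7 to 1211 ± 126 CPM (SD, n = 4; log2 fold change 0.74, SE 0.094, adjusted p = 2.25e-05) and Hc, complement C5, fell from 78.5, 61.9, 46.2 and 68.4 CPM to 42.4, 30.5, 26.3 and 16.7 CPM (log2 fold change -1.11, SE 0.14, adjusted p = 2.24e-05). The C3 level was 0.2 to 0.253 of that in fibroblasts of the same OGN culture, close to the share of the fibroblast signature.

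Of 14 interferon response genes 0 were called by edgeR and 0 by DESeq2, 1 was higher and 3 were lower at an unadjusted p under 0.05, and the median log2 fold change was -0.16. The member with the smallest p, Ifit2, an interferon-induced RNA-binding protein, had -0.76 (adjusted p = 0.124). Of 13 genes of MHC class I presentation 0 were called by edgeR, and 2 were lower at an unadjusted p under 0.05. Tap1, a subunit of the peptide transporter, had -0.63 (adjusted p = 0.0719), and it was called by DESeq2 on 16 libraries and by edgeR without mouse 2. Of 6 class II genes 1 fell, H2-Aa (-0.83, adjusted p = 0.0412), a call that was lost without mouse 1, 3 or 4.

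Glycolytic genes rose by small factors. Of 16 glycolysis genes tested, 10 rose and 0 fell, beside 2.7% called among all genes tested. All 16 had a log2 fold change above 0, with a median of 0.32 beside -0.0031 for all genes. Slc2a1 rose from 179, 177, 167 and 153 CPM to 259.7, 238, 249.8 and 256 CPM (log2 fold change 0.57, SE 0.071, adjusted p = 2.02e-05), with every OGN library above every vehicle library. Pgk1, phosphoglycerate kinase, rose from 669, 662, 659 and 661 CPM to 964, 981, 896 and 1017 CPM (log2 fold change 0.54, SE 0.067, adjusted p = 1.87e-05), and its vehicle libraries differed by under 2% from each other. Slc16a3, the lactate exporter MCT4, rose from 21.5, 15.7, 13.6 and 6.52 CPM to 36.8, 49.7, 43.3 and 18.1 CPM (log2 fold change 1.36, SE 0.19, adjusted p = 0.000124). Mouse 4 had the lowest Slc16a3 level in both groups, so the groups overlapped although each mouse rose. Ldha rose from 2214, 2395, 2259.7 and 1986 CPM to 2907, 3230.0, 2831 and 3789 CPM (log2 fold change 0.52, SE 0.084, adjusted p = 0.000534). Without mouse 3, 6 of the 16 were called.

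HIF-1 targets, a list that shares genes with glycolysis, had 9 of 19 called higher and 0 lower, beside 2.7% called among all genes. Their median was 0.38. Bnip3, which marks mitochondria for removal, rose from 49.9, 49.2, 62.2 and 68.6 CPM to 119, 106, 92.9 and 112 CPM (log2 fold change 0.91, SE 0.11, adjusted p = 1.77e-05). Ero1a, an oxidase of protein folding, had a log2 fold change of 0.64 and Ndrg1, a gene that rises under low oxygen, of 0.63. Of 22 nuclear genes of the respiratory chain 0 were called by edgeR or DESeq2, and 1 was lower at an unadjusted p under 0.05 (Cox7a2 -0.33, adjusted p = 0.35). Of 12 mitochondrially encoded ones 0 were called by either tool and 1 was higher at an unadjusted p under 0.05, mt-Nd6 (0.47, adjusted p = 0.182), which was called without mouse 4. Their median was -0.21, and it was 0.00074 without mouse 2. Of 24 sterol and fatty acid synthesis genes 0 were called by edgeR, 1 by DESeq2 on 16 libraries and 1 by edgeR without mouse 3, and 5 were higher at an unadjusted p under 0.05 (Lss 0.25, adjusted p = 0.0796).

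Cystine import, antioxidant and iron genes were uneven, and their counts stand beside 2.7% called among all genes tested. Slc7a11, the light chain of the cystine-glutamate exchanger, rose from 135, 113, 145 and 117 CPM to 261, 233, 253 and 229.7 CPM (log2 fold change 0.94, SE 0.078, adjusted p = 6.9e-08). Slc3a2, its heavy chain, rose less, from 202, 184, 171 and 199.7 CPM to 236, 234, 224 and 293 CPM (log2 fold change 0.38, SE 0.072, adjusted p = 0.00279), and mouse 4 was highest with OGN. Both genes are ATF4 targets, and of 22 genes of amino acid synthesis and ATF4 response these were the 2 that were called. Of 13 genes of cystine import and glutathione, the same 2 rose and Gstm1, a glutathione transferase, fell (-0.45, not called without mouse 1). Gclc and Gclm, the subunits of the enzyme that starts glutathione synthesis and chosen here after their values were seen, had 0.16 and -0.20 and were not called.

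Of 20 genes that remove superoxide and peroxides, 2 rose and 2 fell, beside 2.7% called among all genes tested. Sod2, the mitochondrial superoxide dismutase, rose from 90, 88.8, 99.2 and 111 CPM to 138, 148, 133 and 161 CPM (log2 fold change 0.57, SE 0.088, adjusted p = 0.000296), with the groups apart. Prdx5 also rose (0.31), whereas catalase (Cat, -0.35) and Nqo1 (-0.57), a quinone reductase, fell. Apart from Sod2, each of these calls was lost without at least 1 mouse, and 1 call was left without mouse 1. Among 17 iron genes, 6 rose and 1 fell, and besides Lcn2 and Cp the raised ones included the metalloreductase Steap4, from a mean of 9.41 ± 3.5 to 27.7 ± 3.07 CPM (SD, n = 4; log2 fold change 1.53, SE 0.21, adjusted p = 8.25e-05). The iron exporter Slc40a1, ferroportin, fell from a mean of 12.1 ± 1.56 to 5.44 ± 0.584 CPM (SD, n = 4; log2 fold change -1.14, SE 0.25, adjusted p = 0.00889), a call lost without mouse 1 or 3. Without mouse 3, 4 iron genes were called.

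Markers of airway secretory cells fell. Airway secretory markers summed to 5326, 5604, 5727 and 4444 CPM in vehicle cells and to 2338, 3681, 3762 and 3323 CPM in OGN cells, with no overlap (means 5275 ± 579 and 3276 ± 654, SD, n = 4; two-sided exact permutation p = 0.0286, the smallest that 4 against 4 libraries allow). Of the 6 markers 4 fell and 0 rose, beside 2.7% called among all genes tested, with a median log2 fold change of -0.53. Scgb1a1, the club cell secretoglobin, fell from 2048, 1939, 1951 and 1692 CPM to 700.2, 1239, 1264 and 835 CPM (log2 fold change -0.96, SE 0.14, adjusted p = 0.000182), and Bpifa1, a secreted airway defence protein, fell from 1599, 1919.9, 1889.8 and 1321 CPM to 567, 1072, 1033 and 941 CPM (log2 fold change -0.91, SE 0.11, adjusted p = 1.01e-05). Mouse 1 had the lowest level of both with OGN. Cyp2f2 (-0.53) and Gsta3 (-0.54) fell too, but not without mouse 1, where 2 of the 6 were called.

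Basal cell markers had 3 of 9 called lower and 0 higher, beside 2.7% called among all genes tested. Krt15, a basal keratin, fell from 515, 604, 372 and 221 CPM to 233, 261, 175 and 103 CPM (log2 fold change -1.14, SE 0.11, adjusted p = 4.71e-07), and Aqp3, a water and glycerol channel, from 379, 420.4, 365 and 136 CPM to 208, 245, 275 and 78.3 CPM (log2 fold change -0.70, SE 0.084, adjusted p = 1.27e-05). Krt5 had a log2 fold change of -0.58 (adjusted p = 0.000637). Mouse 4 had far fewer basal transcripts than the others, in both groups, so the groups overlapped although each mouse fell, and without the replicate block 0 of the 9 were called (adjusted p = 0.0763 for Krt15 and 0.536 for Aqp3). Summed basal markers were 3151, 3586, 2906 and 1435 CPM with vehicle and 2102, 2259, 2430.3 and 960.2 CPM with OGN, lower in 4 of 4 mice (exact permutation p = 0.229 over unpaired libraries). Trp63, the basal master regulator, chosen after its value was seen, had -0.36 and was not called. Of 5 ciliated cell markers 0 were called by edgeR or DESeq2 and 1 was lower at an unadjusted p under 0.05 (Foxj1, their master regulator, -0.22, adjusted p = 0.38). Their sums overlapped, with means of 1121 ± 67.2 and 1064 ± 48.6 CPM (SD, n = 4; exact permutation p = 0.257), higher in 2 of 4 mice.

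Enzymes of xenobiotic and aldehyde metabolism, many of which airway secretory cells express, had 7 of 17 called lower and 0 higher. Their median was -0.32, and 2.7% of all genes tested were called. Ces1g, a carboxylesterase, fell from 46.9, 51.1, 41.3 and 70.3 CPM to 13.4, 16.8, 17.1 and 22.6 CPM (log2 fold change -1.54, SE 0.15, adjusted p = 9.07e-07). Adh7, an alcohol dehydrogenase that also acts on retinol, fell from 92.8, 102, 90.4 and 65.8 CPM to 35.9, 47.7, 56.3 and 41.3 CPM (log2 fold change -0.96, SE 0.11, adjusted p = 7.21e-06). No OGN library reached the lowest vehicle library for either gene. Ces1d had -0.62, and without mouse 1 there were 3 calls in the list. Aox3, an aldehyde oxidase outside it, fell from 221, 186, 193 and 243 CPM to 131, 128, 121 and 122 CPM (log2 fold change -0.74, SE 0.077, adjusted p = 1.85e-06), again with the groups apart.

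Genes of the AT2 signature moved in both directions, and their counts stand beside 2.7% called among all genes tested. Of the 10 genes of the AT2 signature, 2 rose and 1 fell, the median was -0.0017, and the sum was 9572, 12838, 13209.6 and 16268 CPM with vehicle and 12911, 13031, 11999 and 15650.5 CPM with OGN (exact permutation p = 0.914), higher in 2 of 4 mice. Sftpa1, surfactant protein A, a collectin that also binds microbes, rose from 1235, 1142, 1359 and 1414 CPM to 1574, 1847, 1489.8 and 2023 CPM (log2 fold change 0.42, SE 0.085, adjusted p = 0.00496), a call lost without mouse 2. Every OGN library was above every vehicle library. Sftpd, the other surfactant collectin, had a log2 fold change of 0.45 (adjusted p = 0.00673), lost without mouse 1 or 2 and without the replicate block (adjusted p of up to 0.102). The hydrophobic surfactant protein Sftpb was at 4193, 3729, 3588 and 4109.7 CPM with vehicle and 3561, 3418, 3809.5 and 4859 CPM with OGN (log2 fold change -0.005, SE 0.083, adjusted p = 0.989). Sftpc, the most specific AT2 gene, was at 665, 4880.2, 5031 and 6903 CPM with vehicle and 3928, 3782, 3372 and 4056 CPM with OGN (log2 fold change -0.11, SE 0.34, adjusted p = 0.933). The vehicle library of mouse 1 was far below the other vehicle libraries for Sftpc, though not for Sftpb or Sftpa1. Without mouse 1 the log2 fold change of Sftpc was -0.57 and was called, whereas it was 0.085 without mouse 3 and 0.16 without mouse 4. The 1 gene of the signature that fell was Hopx, which marks the path from AT2 to AT1 cells (-0.64, adjusted p = 0.0077, not called without mouse 1 or 3).

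A wider list of AT2 genes, drawn up for lipid and surfactant handling, had 6 of 13 called higher and 1 lower, beside 2.7% called among all genes. Chil1, Lyz1, Lyz2, Sftpa1 and Sftpd were among those raised, and Hc was the lowered gene. Chil1, the lysozymes and complement Hc were described above with other groups, so these counts do not describe lipid and surfactant handling alone. Fabp5, a fatty acid-binding protein, was also raised (log2 fold change 0.77).

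Of 12 AT1 markers, 2 fell and 0 rose, beside 2.7% called among all genes tested, with a median of -0.12. Ager, the AT1 receptor for glycation products, fell from 334, 283, 269 and 397 CPM to 252, 206, 179 and 261 CPM (log2 fold change -0.52, SE 0.094, adjusted p = 0.00173). The groups did not overlap, and the call was lost without the replicate block (adjusted p = 0.130). Cav1, caveolin 1, fell from 111, 136, 105 and 93.3 CPM to 76.6, 78.9, 72.2 and 49.6 CPM (log2 fold change -0.67, SE 0.089, adjusted p = 4.13e-05), but its level was 0.346 to 0.455 of the fibroblast level in vehicle cultures. Emp2 was at 466, 405, 423 and 472 CPM with vehicle and at 454, 380.0, 424 and 453 CPM with OGN (adjusted p = 0.856). Lmo7 went from 698, 641, 661 and 686 CPM to 643, 550.0, 627 and 720.5 CPM (adjusted p = 0.66). Gprc5a was at 629.9, 575, 497 and 597 CPM with vehicle and at 543, 523, 545 and 615 CPM with OGN (adjusted p = 0.87). For these 3 genes the groups overlapped throughout. Summed AT1 markers had means of 3897 ± 179.8 and 3659 ± 288 CPM (SD, n = 4; exact permutation p = 0.229), higher in 1 of 4 mice.

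**Figure D3:**
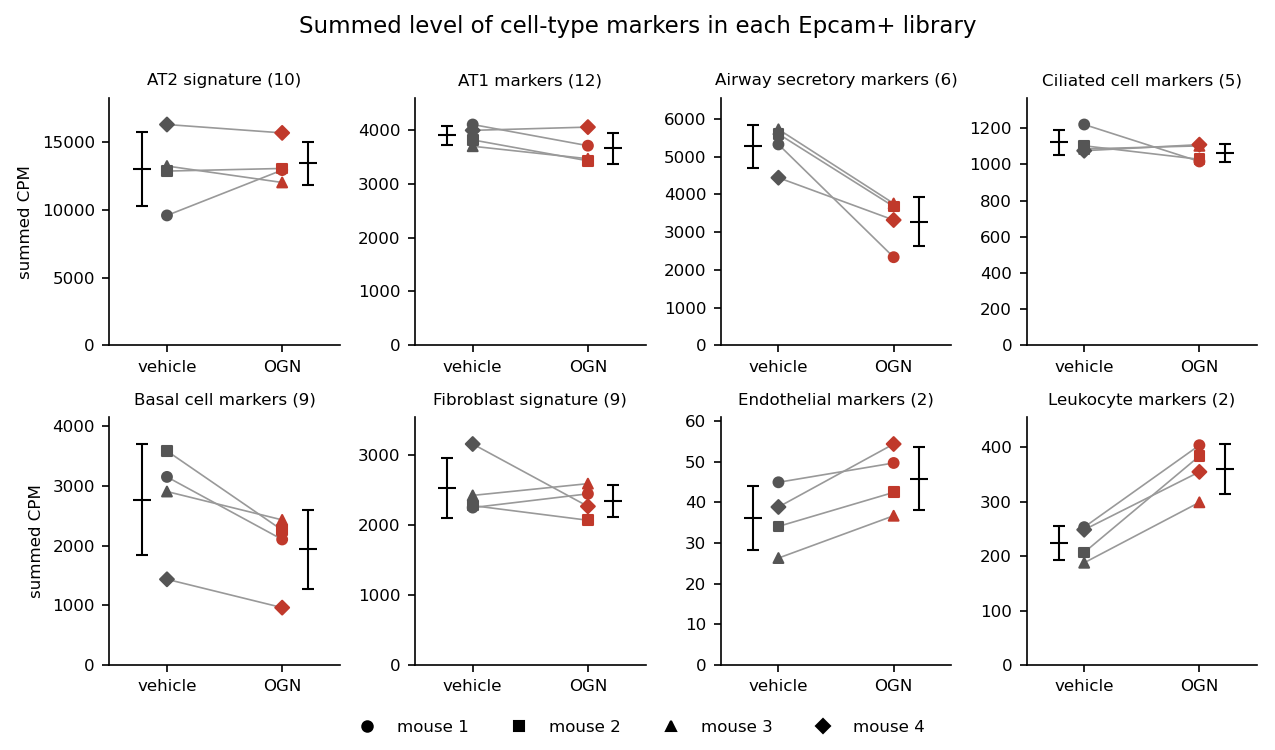
Summed CPM of the tested markers of 8 cell types (number of genes in parentheses) in the vehicle (grey) and OGN (red) Epcam+ libraries, with a line per mouse, a marker shape for each mouse and the mean ± SD beside each group. Airway secretory markers fall and leukocyte markers rise without overlap, and the AT2 signature overlaps.

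Of 15 genes of the transitional state between AT2 and AT1 cells, 3 rose: Ndrg1, Itgb6 (0.52), which encodes an integrin subunit that activates TGF-beta, and Plaur (0.42), the urokinase receptor. Without mouse 1 only Ndrg1 was called, and Plaur lost its call without mouse 3 or 4 as well. Krt8, the keratin that names this state, chosen after its value was seen, was at a mean of 1511 CPM with vehicle and 1498 CPM with OGN. Of 16 lung lineage transcription factors 1 was called (Hopx), and of 18 junction genes 1 (Tjp3, 0.43), beside 2.7% of all genes tested. Of 22 cell cycle genes 0 were called by edgeR or DESeq2, and 0 passed an unadjusted p under 0.05 (Tyms -0.13, adjusted p = 0.64). Among 17 p53 targets 2 fell, Trp53inp1 (-0.53) and Cdkn1a, the cell cycle inhibitor p21, which went from 254, 273, 246 and 312 CPM to 205, 197, 246 and 208 CPM (log2 fold change -0.33, SE 0.085, adjusted p = 0.038). Mouse 3 did not fall for Cdkn1a, and the call was lost without mouse 1, 2 or 4.

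Markers of other cell types in the fraction moved as follows. Leukocyte markers summed to 253, 207, 188 and 248 CPM with vehicle and 404, 384, 299 and 355 CPM with OGN (exact permutation p = 0.0286), higher in 4 of 4 mice, but only 2 of 13 had enough counts, and nearly all of that sum was Lyz2, which AT2 cells express as well. Cd68, the other one, had 0.63 and was not called. The other 11, among them Ptprc (CD45), had no row in the table, which says only that at least 1 of the 32 libraries had no count. Endothelial markers (2 of 10 tested, Esam and Vwf) had means of 36 ± 7.87 and 45.8 ± 7.79 CPM (SD, n = 4; exact permutation p = 0.143 over unpaired libraries) and were higher in 4 of 4 mice, with 0 called by edgeR or DESeq2 and 1 higher at an unadjusted p under 0.05 (Esam 0.38, adjusted p = 0.121). The summed fibroblast signature overlapped, with means of 2531 ± 428 and 2347 ± 227 CPM (SD, n = 4; exact permutation p = 0.571), and was higher in 2 of 4 mice. Of its 9 genes 1 rose, Dcn (1.14), and 2 fell, Col6a1 (-0.64) and Col6a2 (-0.83, not called without mouse 1 or 4). The part of these cells in the results above was not tested.

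Ogn itself, the mouse gene of the added protein, was scarce and fell from 7.7, 6.55, 9.65 and 16.7 CPM to 2.48, 4.28, 4.39 and 6.41 CPM (log2 fold change -1.17, SE 0.27, adjusted p = 0.0166). The groups did not overlap, but the call was lost without mouse 1, 3 or 4. Its level was 0.161 to 0.324 of the fibroblast level in vehicle cultures, near the share of the fibroblast signature. Of 5 small leucine-rich proteoglycans, Dcn, decorin, was the 1 that rose, from 92.1, 105, 96.3 and 149.8 CPM to 289, 244, 223 and 201 CPM (log2 fold change 1.14, SE 0.12, adjusted p = 2.85e-06), and Ogn the 1 that fell. The level of Dcn was 0.128 to 0.207 of the fibroblast level in OGN cultures.

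Growth factors of mesenchymal type rose too. Hgf, hepatocyte growth factor, went from 13.2, 9.18, 16.4 and 18.2 CPM to 43.8, 35.4, 36.7 and 38.7 CPM (log2 fold change 1.46, SE 0.15, adjusted p = 1.85e-06), Fgf7 from a mean of 16.5 ± 8.02 to 32.5 ± 5.24 CPM (SD, n = 4; log2 fold change 1.08, SE 0.19, adjusted p = 0.00115) and Fgf10 from 7.11 ± 2.1 to 13.7 ± 2.99 CPM (SD, n = 4; log2 fold change 1.04, SE 0.25, adjusted p = 0.0215). Hgf stood at 0.116 to 0.155, Fgf7 at 0.155 to 0.201 and Fgf10 at 0.0863 to 0.179 of the fibroblast level of the same OGN cultures. The calls of Fgf7 and Fgf10 were lost without mouse 1, and that of Fgf10 also without mouse 3. These were 3 of the 15 FGF and HGF genes, and Fgf1 fell (-0.66), beside 2.7% called among all genes tested. In all, 8 of the 173 raised genes (4.62%) were at or under the fibroblast signature's share of the fibroblast level in each OGN culture, beside 0.785% of all genes tested: Hgf, Dcn, Fam20c, Fgf7, Pi15, Npr3, Fgf10 and Stac2, of which Npr3 was named by this count and lost its call without mouse 1. Of the 143 lowered genes 5 (3.50%) were so in each vehicle culture, beside 1.43% of all: Cxcl12, Tnxb, Irag1, Egr2 and Ak5. For these 13 genes a change in fibroblasts within the fraction and a change in Epcam+ cells cannot be told apart. The count takes only genes at or under the median share in every culture. The part of fibroblasts in the other calls was not tested, so they are not shown to be changes of Epcam+ cells alone.

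Signaling and matrix lists are given next, beside 2.7% called among all genes tested. Of 21 TGF-beta and BMP genes 0 were called by edgeR or DESeq2 and 3 were lower at an unadjusted p under 0.05 (Id2 -0.28, adjusted p = 0.274), with 1 call without mouse 3. Of 10 EGF receptor and ligand genes 0 were called by edgeR, 2 were higher and 1 lower at an unadjusted p under 0.05, and 1 each was called by DESeq2 on 16 libraries and without mouse 2 or 4. Ereg, epiregulin, had 0.45 (adjusted p = 0.0812), and it was the call of DESeq2 and of the fit without mouse 2. Of 19 Wnt genes 2 fell, Dkk3 (-0.80) and Sfrp1 (-0.60), of 11 Notch genes 1 fell, Notch1 (-0.53), and of 8 genes of the IGF axis 1 fell, Irs1 (-0.49), each call lost without at least 1 mouse. Of 21 basement membrane and matrix genes 3 fell and 0 rose, namely Col4a3 (-1.01), Nid2 (-0.87) and Col4a4 (-0.79), with 1 call without mouse 1 or 2 and 0 without the replicate block. Timp3, a matrix-bound inhibitor of metalloproteinases, fell from 231, 237, 303 and 328 CPM to 136, 148, 202 and 158 CPM (log2 fold change -0.76, SE 0.077, adjusted p = 1.18e-06), with the groups apart. It was 1 of 15 metalloproteinase and inhibitor genes, of which Mmp13 (1.59) and Mmp10 (1.76) rose from under 3 CPM. The call of Mmp13 was lost without mouse 1 or 3, and that of Mmp10 without mouse 1, 2, 3 or 4. Ccn1 rose (0.58) and Ankrd1 fell (-0.95, not without mouse 1 or 3) among 11 contractile and YAP target genes. Cebpd rose (0.89, not without mouse 2) and Fkbp5 fell (-0.44, not without mouse 1, 3 or 4) among 11 genes of the glucocorticoid response, where Lcn2 was the third call. Of 20 genes of protein folding in the endoplasmic reticulum 1 rose, Hyou1 (0.27), and that call was lost without any 1 mouse. Of 82 cytosolic ribosomal proteins, found by symbol, 1 was called, with a median of 0.017.

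**Figure D4:**
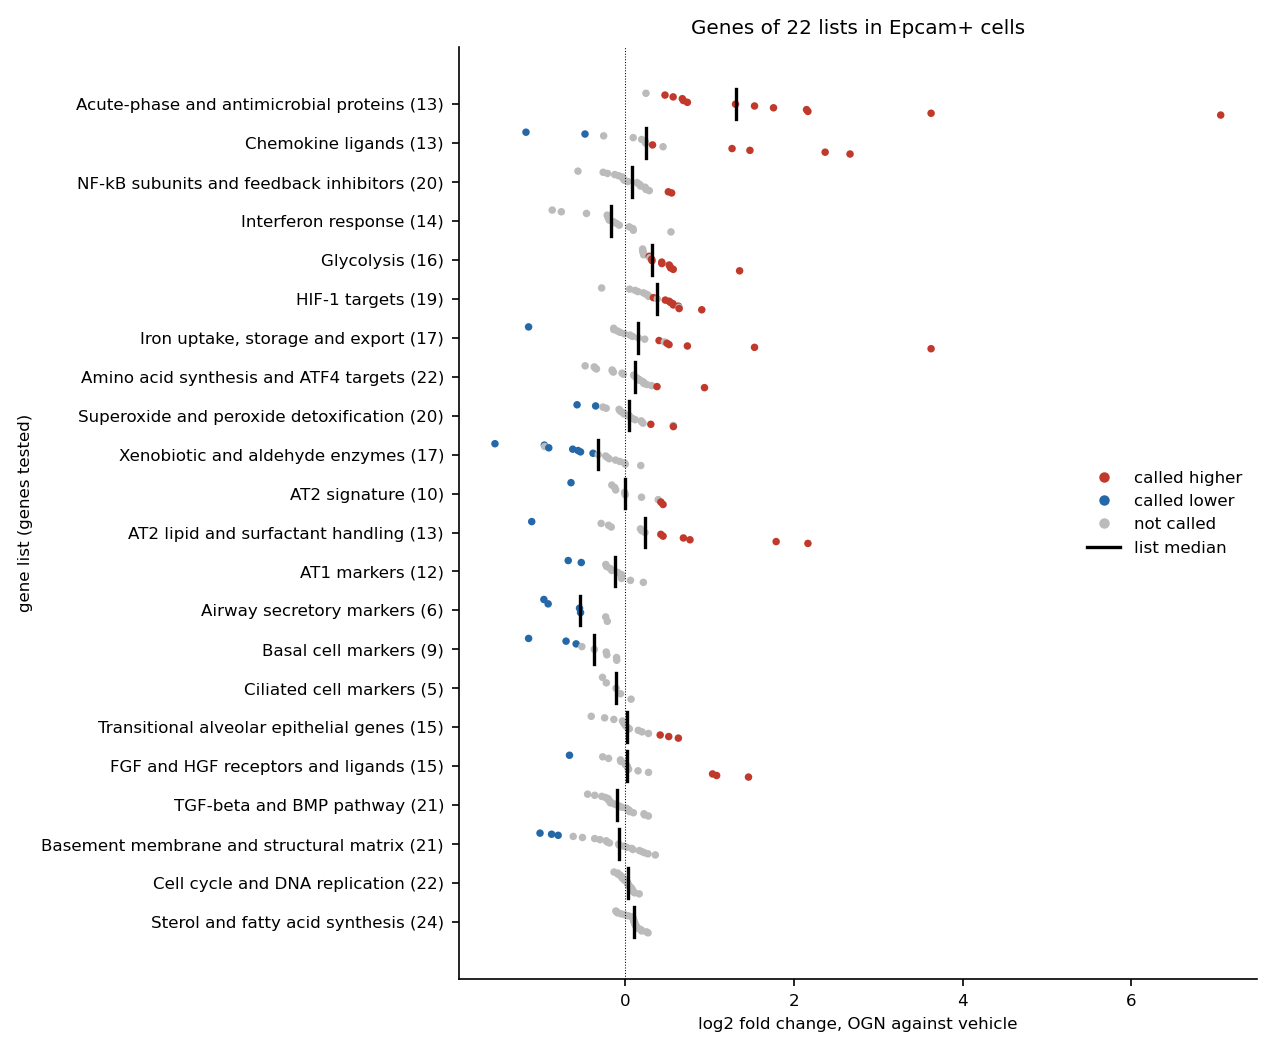
Log2 fold change by OGN of each tested gene in 22 lists (x axis; number of genes in parentheses), with genes called higher in red, called lower in blue and not called in grey, and a black bar at each list's median. The acute-phase list is shifted furthest to the right (median 1.31) and the airway secretory list furthest to the left (median -0.53), while the cell cycle genes lie close to 0.

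Genes outside all lists made up 215 of the 316 calls. Among the 15 with the smallest p that rose were Slc26a4, the anion exchanger pendrin of airway epithelium, from 6.81, 5.9, 3.9 and 11.3 to 37.3, 23.8, 27 and 41.3 CPM (log2 fold change 2.30, SE 0.21, adjusted p = 4.71e-07), and Cd177, a surface protein best known from neutrophils, from 40.8, 14.4, 37.8 and 34.3 to 79, 38, 87.7 and 87.8 CPM (log2 fold change 1.20, SE 0.12, adjusted p = 1.1e-06). Slc26a4 separated the groups, and for Cd177 mouse 2 was lowest in both, so they overlapped. The zinc importer Slc39a4 rose from 148, 113, 133 and 116 to 223, 201, 229 and 243 CPM (log2 fold change 0.81, SE 0.081, adjusted p = 1.18e-06). Vnn1, a pantetheinase, rose from 17.2, 14.7, 15.2 and 19 to 42.6, 43.2, 35.2 and 41.3 CPM (log2 fold change 1.29, SE 0.13, adjusted p = 1.45e-06), and its relative Vnn3 had the change of 2.64. All OGN libraries lay above all vehicle libraries for Slc39a4 and Vnn1.

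Among the genes that fell, the immediate early transcription factor Egr1 went from 149, 150.1, 64.3 and 71.8 to 46.9, 62.9, 36.8 and 32.6 CPM (log2 fold change -1.24, SE 0.15, adjusted p = 1.81e-05), with mice 1 and 2 higher than mice 3 and 4 before OGN. Its relatives Egr2 (-2.19) and Egr3 (-1.40) fell as well, Egr2 from at most 7.99 CPM and not without mouse 1 or 2, and Egr3 not without mouse 1. Egr1 was at 0.215 to 0.344 of the fibroblast level in vehicle cultures. Mme, the peptidase neprilysin, fell from 80.3, 63.6, 53.6 and 72.3 to 35.5, 33.5, 25.9 and 27.6 CPM (log2 fold change -1.12, SE 0.12, adjusted p = 2.01e-06). Lgi3, a secreted protein with leucine-rich repeats, fell from 124, 109.8, 89.6 and 118 to 73.7, 60.5, 56.2 and 57.1 CPM (log2 fold change -0.81, SE 0.094, adjusted p = 7.47e-06). Lgr6, a receptor for R-spondins that marks some epithelial stem cells, fell from 55.8, 72.7, 46.8 and 25.2 to 19.3, 26.6, 23.7 and 17.3 CPM (log2 fold change -1.16, SE 0.14, adjusted p = 1.01e-05), with overlap through the low vehicle level of mouse 4. Mettl7a1 fell from 112, 90.4, 86.1 and 115 to 60.3, 42.8, 59.3 and 35.4 CPM (log2 fold change -0.999, SE 0.12, adjusted p = 1.87e-05), and Sned1, a matrix protein, from 74.7, 61.3, 88.7 and 82.8 to 49.3, 38, 49.1 and 34 CPM (log2 fold change -0.83, SE 0.11, adjusted p = 3.63e-05). For Mme, Lgi3, Mettl7a1 and Sned1 the groups were apart.

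Besides the genes already named, those raised over 2-fold included Mab21l3 (2.58), Gdpd2 (2.39), Adamts7 (2.06), Zc3h12a (1.49), Ak4 (1.14), Fam20c (1.06), Noxo1 (1.58), Emilin2 (1.33) and Pi15 (1.26), whose calls held under each alternative that tested them. Lilrb4b (1.99) and Gm3776 (1.05) lost theirs under 1 alternative analysis. Trabd2b (2.11), Unc13a (2.04), Il13ra2 (2.04), Pdzrn3 (1.35), Sp5 (1.30), Pi16 (1.24), Upp1 (1.15) and Stac2 (1.09) lost theirs without at least 1 mouse. Zc3h12a encodes regnase-1, a nuclease that degrades inflammatory mRNAs, and Noxo1 a subunit that organizes an NADPH oxidase. Those lowered over 2-fold were also Ptn (-1.14), and, with calls lost without at least 1 mouse, Gm43300 (-1.50), Mertk (-1.38), Glt8d2 (-1.31), Ak5 (-1.28), Irag1 (-1.16), Mgp (-1.13), Plb1 (-1.08), Tnxb (-1.08) and Akr1c14 (-1.002). Of the 43 raised genes over 2-fold, 29 kept their call in all alternatives, and of the 22 lowered ones, 7 did.

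Whether OGN differed from the other fibroblast products was tested directly, as OGN against EVs (2.22% of all genes called) and OGN against SFs (1.91%). These contrasts do not use the vehicle group as a reference, though its libraries were part of the fit. Of the 173 raised genes, 66 differed from EVs and 77 from SFs, and of the 143 lowered genes, 54 and 63 did. These genes were chosen on the same 4 OGN libraries, which tilts both tests on them away from 0, so nothing is read from these counts or from their direction. The same tilt holds for the single genes named below, whose differences and adjusted p are given as descriptions. Both differences were called for 49 of the raised and 39 of the lowered genes. Saa3 was 3.98 log2 units higher with OGN than with EVs (adjusted p = 3.11e-12) and 3.17 higher than with SFs (adjusted p = 2.68e-10). Lcn2 was higher by 1.99 and 1.71, and Chil1 by 1.17 and 0.89, each an adjusted p of at most 1.27e-07. Airway and basal genes gave smaller differences. Scgb1a1 differed by -0.032 from EVs (adjusted p = 0.958) and by -0.25 from SFs (adjusted p = 0.437), and Aqp3 by -0.031 and -0.0085 (adjusted p = 0.925 and 0.978). Krt15 differed by -0.43 from EVs (adjusted p = 0.0269) and by -0.23 from SFs (adjusted p = 0.307). Cxcl12, Timp3 and Egr1 were lower with OGN than with either, by -1.05, -0.73 and -1.13 against EVs (adjusted p = 1.72e-05, 3.27e-06 and 8.28e-05). The doses of EVs and SFs are in other units than that of OGN and cannot be matched.

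Genes called in both Epcam+ cells and the fibroblasts of the same cultures mostly changed in the same direction. OGN raised 2.7% and lowered 1.86% of the genes tested in CCL206 cells. Of the 173 genes raised in Epcam+ cells, 112 were called in CCL206 cells and 111 of these were raised. Of the 143 lowered genes, 47 were called there and 45 of these were lowered, so most were not called there. Epcam+ libraries also held fibroblast transcripts, and their part in the shared direction was not tested. The level in Epcam+ cells was above that of the fibroblasts in all 4 OGN cultures for 70 of the raised genes and below it for 92, and in all 4 vehicle cultures above it for 71 of the lowered genes and below it for 63, beside 38.02% above and 37.9% below of all genes tested in vehicle cultures. Saa3 was at 0.359 to 0.48 of the fibroblast level with OGN, Slpi at 0.483 to 0.696, Lcn2 at 1.07 to 1.26 and Chil1 at 1.92 to 3.28. Pglyrp1, at 11 to 39.4 times, Cxcl3, at 2.45 to 5.94 times, and Krt15, at 35.8 to 1041 times, were above it.

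The difference between the OGN effects of the populations was called for 0.551% of all genes, and for 23 of the raised and 4 of the lowered genes. The raised and lowered genes were chosen on the same Epcam+ libraries, which tilts the difference towards a larger effect in Epcam+ cells. The counts, directions, differences and adjusted p below are therefore descriptions. Among the 23, the rise was larger in fibroblasts for 15 and larger in Epcam+ cells for 8 genes. Lcn2 rose by 5.16 in fibroblasts and less in Epcam+ cells (difference -1.54, SE 0.22, adjusted p = 0.000299), and so did Hp (2.26; difference -1.69, SE 0.25, adjusted p = 0.000299), Ccl20, Il33, Cd14, Tnip3, Vnn1, Slc2a1 and Sod2. The differences of Lcn2, Hp and Il33 were called in each of 6 alternative analyses, whereas those of Tnip3, Slc2a1 and Sod2 were lost without mouse 3, those of Ccl20 and Cd14 without mouse 1 or 3, and that of Vnn1 without mouse 2, 3 or 4. The 8 genes with the larger effect in Epcam+ cells, named because of this count, were Ccn1, Slco1a5, Ly6c1, Adamts9, Creb3l1, Chic2, Ly6a and Tnfaip2, and each of these differences was lost without at least 1 mouse. Ccn1, a matricellular protein and YAP target, rose by 0.58 in Epcam+ cells and had -0.96 in fibroblasts (adjusted p = 0.0234 there; difference 1.55, SE 0.27, adjusted p = 0.00231, not called without mouse 1 or 2). The 4 lowered genes were Aldh3a1, Epas1 and Soat1, whose effect was more negative in Epcam+ cells, and Cx3cl1, whose effect was more negative in fibroblasts. Aldh3a1, an aldehyde dehydrogenase, had -0.56 in Epcam+ cells and 1.16 in fibroblasts (difference -1.71, SE 0.24, adjusted p = 0.000142), which held in each of 6 alternatives. The fall of Aldh3a1 in Epcam+ cells was itself not called without mouse 1, 2 or 3. Epas1, which encodes HIF-2 alpha, had -0.50 and 0.77 (difference -1.27, SE 0.17, adjusted p = 7.19e-05), and both calls were lost without the replicate block.

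**Figure D5:**
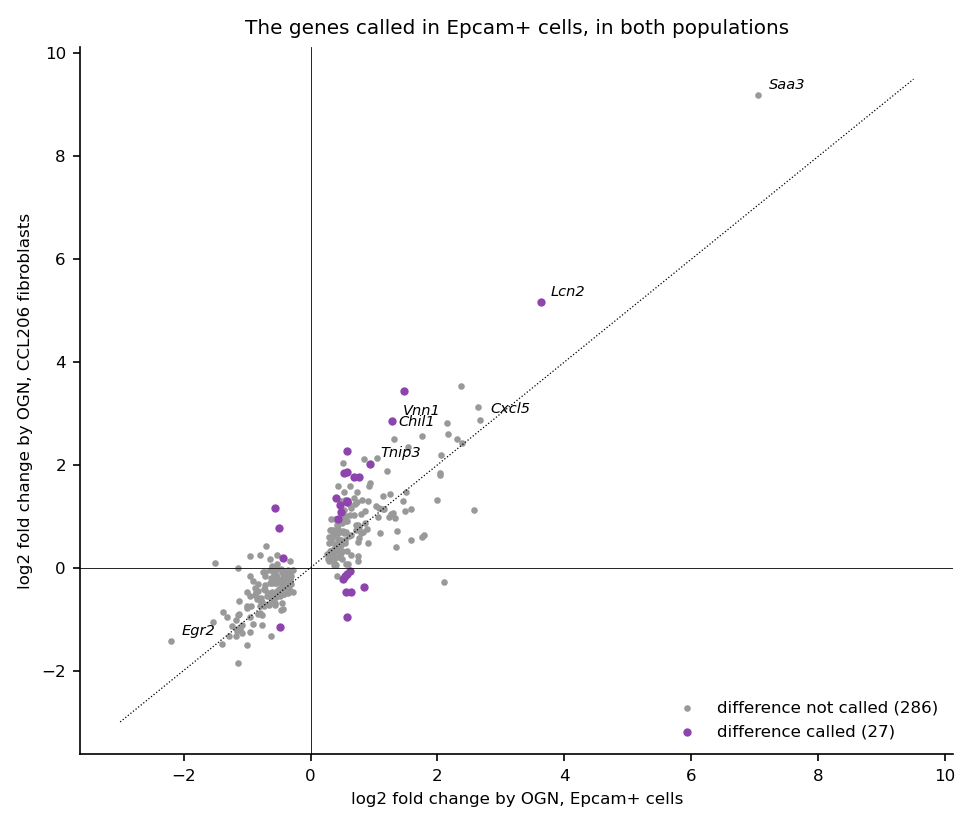
Log2 fold change by OGN in Epcam+ cells (x axis) and in the CCL206 fibroblasts of the same cultures (y axis) for the 313 called genes that were tested in both, with equal effects on the dotted line. The 27 genes whose difference between populations was called are purple, and Lcn2 lies above the line, at 3.63 against 5.16.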

How the data were processed

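RNA of re-sorted Epcam+ cells and fibroblasts was sequenced by the submitters. The authors deposited 1 table of raw read counts per gene for 32 libraries, not normalized, after trimming with Trimmomatic 0.30 per the submitters' processing notes, which also name DESeq2 1.34.0. The aligner and counter are not given in the sources used here, and the build is given as GRCm38 in the paper and GRCm39 in the labels, so no coordinates were taken from the table. Strand use in counting is not stated either. Groups and mouse numbers came from the labels.

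Counts were tested with edgeR 4.0.16 (R 4.3.3, limma 3.58.1): TMM scaling, filterByExpr, and a quasi-likelihood fit of treatment and mouse over all 16 Epcam+ libraries, so that EV and SF libraries add to the estimate of the spread. Calls were made at a Benjamini-Hochberg adjusted p under 0.05 over all 11716 genes, and edgeR's adjusted p is meant wherever 1 is printed without a tool. The difference between populations was an interaction term over 32 libraries. That fit had terms for mouse and treatment within each population and none for the culture. The Epcam+ and fibroblast libraries of a culture were thus taken as independent, and fibroblast transcripts in Epcam+ libraries were not modelled. The standard error was taken from the log2 fold change and F. Summed marker levels were compared by a two-sided exact permutation test over 70 regroupings of the libraries, which leaves the pairing by mouse out. DESeq2 1.42.0, RLE scaling, other filters, fits without the mouse term, with the 8 libraries alone and without each mouse were tried as alternatives. Same-numbered libraries come from the same mouse by the labels. Over genes, the deviations of vehicle and OGN libraries of 1 mouse correlated at 0.135, 0.036, 0.056 and 0.21. Between different mice the values ran from -0.452 (vehicle of mouse 1, OGN of mouse 4) to 0.49 (vehicle of mouse 1, OGN of mouse 3). These correlations therefore do not set the pairs apart, and the pairing rests on the labels. No pair of replicates agreed within sampling noise (a chi-square over its degrees of freedom of 4.55 or more). The scripts were tested on simulated data with known changes. RefSeq promoter windows (GRCm38.p6) were matched by symbol.

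Genes were named by a fixed rule: the 15 smallest p in each direction, every call over 2-fold, up to 4 called members per list or else the member with the smallest p, and 12 genes of the study's interest. A gene that this rule selects is not reported here. The groups compared, the rule and the 45 gene lists were chosen with earlier results of these data known, so list counts are descriptions. P-values of the main fits rest on the spread between libraries that is left after the terms for treatment and mouse. Those of the summed marker levels rest on regroupings of unpaired libraries. All come from these 4 mice.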

Additional observations from a re-analysis of the deposited data

Results flagged for a closer look

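For 102 groups of 4 libraries (51 genes given per library), the most distant library was compared with Dixon's criterion, which chance passes in about 5% of groups. It was passed by 2 groups: Cxcl3 among OGN libraries, where mouse 3 was at 78.3 CPM, and Slc3a2 among OGN libraries, where mouse 4 was at 293 CPM.

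The OGN effect differed between Epcam+ cells and CCL206 fibroblasts, by the interaction term of edgeR at an adjusted p under 0.05, for 27 of the called genes. All values are the log2 effect in Epcam+ cells minus that in fibroblasts. The called genes were chosen on the same Epcam+ libraries, which tilts these values, so they are descriptions. Among inflammatory and antimicrobial genes the difference was -1.54 for Lcn2, -1.09 for Tnip3, -1.69 for Hp, -0.99 for Cd14, -1.93 for Ccl20, -1.27 for Il33 and -1.30 for Ptges, which encodes the inducible prostaglandin E synthase. It was -1.52 for Vnn1, -0.73 for Sod2, -0.69 for Slc2a1, -0.60 for P4ha2, -0.76 for Slc16a1, -0.51 for Stom, -0.94 for Mlph and -1.07 for Gm20186. In each of these 15 genes, OGN raised the level in both populations.

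It was positive for 8 genes raised in Epcam+ cells, namely 1.55 for Ccn1, 1.21 for Slco1a5, 1.11 for Ly6c1, 1.04 for Adamts9, 0.73 for Creb3l1, 0.71 for Chic2, 0.70 for Ly6a and 0.68 for Tnfaip2. Among lowered genes it was -1.71 for Aldh3a1, -1.27 for Epas1 and -0.61 for Soat1, and 0.67 for Cx3cl1. The differences of Lcn2, Il33, Ptges, Hp and Aldh3a1 were called in each of 6 alternative analyses, and each of the other 22 was lost in at least 1.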

How the results depend on the processing

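Of the 15 genes that rose with the smallest p, 15 kept their call in every alternative that tested them, and of the 15 that fell, 13 did. Krt15 and Aqp3 lost theirs without the replicate block. Of all 148 genes named and called, 74 kept their call throughout. The 173 raised genes ranged from 88 to 173 with 1 mouse left out (88 without mouse 1), and the 143 lowered genes from 56 to 102 (56 without mouse 1). Above a 2-fold change there were 43 and 22. Genes with a level above that of the fibroblasts in all 4 cultures, a restriction added after the data were seen, numbered 70 and 71. Without the replicate block (the mouse term) 77 lowered genes were called, with the 8 libraries alone 69, with DESeq2 216 on 16 libraries and 80 on 8. Raised genes under these settings stayed within 1.5 times of 173, as did both counts under RLE scaling and other filters. OGN against EVs gave 260 calls, 413 with DESeq2 and 132 to 191 without 1 mouse. OGN against SFs gave 224, 74 without the replicate block, 388 with DESeq2 and 72 to 136 without 1 mouse. The difference between populations gave 65, 35 without the replicate block, 142 with DESeq2 and 16 to 47 without 1 mouse. Leaving out a mouse leaves fewer libraries, and the cause of the other shifts was not tested.

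Signs turned for 6 named genes, none of them called. Sftpc was at 0.11 with the 8 libraries alone and at 0.11 with DESeq2 on them, and ranged from -0.57 (called, without mouse 1) to 0.16 (without mouse 4), at 0.085 without mouse 3. Sftpb was at 0.0023 without the replicate block, and leaving out mouse 1, 2 or 4 gave 0.072, 0.032 and -0.086. Over such fits Gprc5a ranged from -0.10 to 0.014 (positive without mouse 1), Epcam from -0.057 (without mouse 4) to 0.21, Serpina3n from -0.057 (without mouse 1) to 0.78 and Krt8 from -0.097 (without mouse 4) to 0.016, at 0.0059 without mouse 1 and 0.0041 without mouse 3. Over lists and alternatives, counts of called genes stayed within 1.5 times in 401 cases and moved further in 94, and medians changed sign in 2.

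A gene without a call may still have changed, since the smallest absolute log2 fold change called was 0.26 and 1540 genes passed an unadjusted p of 0.05. The table leaves out genes with no count in any 1 of 32 libraries, which removes many markers and genes silent in 1 group. Vehicle and OGN were compared in 4 mice.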
